A study of Mus musculus with 8 samples.

Results

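The 10 genes followed here belong to the immediate early response and were measured in spinal cord RNA of 8 C57BL/6 mice carrying an inducible deletion of Arf1, a small GTPase that recruits coat proteins to Golgi membranes. The genes were chosen by name: Fos, Fosb, Junb, Egr1, Npas4, Arc, Ier2, Dusp1, Btg2 and Cyr61, which is also called Ccn1. All 10 were found among the 47643 genes of the deposited count table, and all 10 passed the filter on low counts. The labels give 4 mice as homozygous and 4 as heterozygous, and the treatment note, the same for both groups, gives tamoxifen at 100 mg/kg into the peritoneum for deletion of Arf1. The mice were 2 to 10 months old, with no age or sex given for single animals, while the sources used here name neither the driver of the recombinase, nor the allele, nor the time since tamoxifen. The study set out to learn what Arf1 does in neurons.

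Immediate early genes are transcribed within minutes of a stimulus, without the need for newly made protein, because the factors that switch them on are already present in the cell. In neurons, calcium entry and MAP kinases act through CREB and serum response factor on genes such as Fos, Arc and Npas4. Growth factors, cytokines and stress induce an overlapping set in glia and vessel cells, and the transcripts decay within hours. Whole spinal cord holds all of these cells, so less RNA per cell and fewer cells of a type cannot be told apart here.

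The promoters of 4 of these genes are printed to show which marked elements they hold, and because the results turn on these genes. Cyr61 and Btg2 passed the test with 7 libraries, Fos passed with 6, and Fosb was highest in a heterozygous mouse. Each sequence runs from 250 bases before to 50 bases after the transcription start (RefSeq, GRCm38.p6), on the strand of the gene. Capitals mark the cyclic AMP response element TGACGTCA, its core TGACG on either strand, and the TATA box TATAAA on the strand of the gene. The windows are chr3:145649936-145650235 on the minus strand for Cyr61, chr1:134079106-134079405 on the minus strand for Btg2, chr12:85473640-85473939 on the plus strand for Fos, and chr7:19309996-19310295 on the minus strand for Fosb.
Cyr61: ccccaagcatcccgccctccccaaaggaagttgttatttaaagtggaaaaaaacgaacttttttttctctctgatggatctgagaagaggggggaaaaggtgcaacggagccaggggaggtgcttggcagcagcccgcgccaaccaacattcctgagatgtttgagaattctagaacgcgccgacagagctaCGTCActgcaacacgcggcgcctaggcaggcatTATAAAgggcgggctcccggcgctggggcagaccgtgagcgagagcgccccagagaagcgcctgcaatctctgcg
Btg2: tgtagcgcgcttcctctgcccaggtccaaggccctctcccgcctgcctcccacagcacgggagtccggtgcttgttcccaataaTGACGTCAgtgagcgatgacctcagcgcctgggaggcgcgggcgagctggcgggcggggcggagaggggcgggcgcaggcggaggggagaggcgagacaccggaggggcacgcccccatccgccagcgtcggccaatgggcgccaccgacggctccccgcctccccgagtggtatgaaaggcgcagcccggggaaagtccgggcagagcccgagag
Fos: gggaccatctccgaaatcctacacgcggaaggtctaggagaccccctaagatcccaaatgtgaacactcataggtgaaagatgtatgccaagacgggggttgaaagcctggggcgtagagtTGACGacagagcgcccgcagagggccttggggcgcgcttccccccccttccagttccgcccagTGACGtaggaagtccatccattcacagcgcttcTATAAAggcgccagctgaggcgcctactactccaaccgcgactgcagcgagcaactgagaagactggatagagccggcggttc
Fosb: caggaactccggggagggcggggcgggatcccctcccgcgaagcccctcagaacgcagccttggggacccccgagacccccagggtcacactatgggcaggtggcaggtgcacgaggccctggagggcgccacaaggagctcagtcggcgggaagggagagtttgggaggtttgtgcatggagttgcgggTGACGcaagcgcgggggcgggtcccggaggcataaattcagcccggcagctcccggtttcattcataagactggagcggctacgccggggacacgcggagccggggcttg

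RefSeq promoters were matched for 7 of the genes, namely these 4 with Junb, Npas4 and Dusp1. Every one of the 7 held at least 1 core TGACG, which 20.8% of 32851 RefSeq promoters of that length held on either strand. The full palindrome TGACGTCA, which contains the core on both strands, stood in Btg2 and Dusp1, against 1.79% of all promoters. The first base of the palindrome lay 166 bases before the start in Btg2 and 143 bases before it in Dusp1. TATAAA was found in Fos, Cyr61 and Junb, and in 8.32% of all promoters. Its first base lay at position -33 from the start in Fos and -25 in Cyr61, but on the start base itself in Junb. The binding motif of serum response factor, the CArG box, was in none of the 7 windows and in 1.63% of all promoters; a match or its absence in this window says nothing on whether a factor binds.

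The libraries, 1 per mouse, held 26321522 to 37879426 expected counts in the homozygous group and 29857210 to 37803594 in the heterozygous group. Levels are given as CPM, the counts of a gene as a share of its library, after TMM scaling. Arf1 itself stood at 307, 22.5, 22.8 and 39.9 CPM in homozygous replicates 1 to 4, and at 296 to 334 CPM in the heterozygous libraries, so the library labelled homozygous replicate 1 goes against its label. Each member is therefore compared in the 8 libraries as labelled and in the 7 without that library. The other gene lists are given for the 7 libraries, and edgeR called no gene of any list, and none in the whole table, with 8. In homozygous replicate 3, 2.44% of bases were ribosomal and 92.4% of reads mapped, against 0.10% to 0.34% and at least 98.3% in the other libraries, and homozygous replicate 4 had an RNA integrity number of 8 and the others 9. Heterozygous replicate 4 had a ratio of 5′ to 3′ coverage of 0.505, against 0.413 to 0.441 in the other 7 libraries. The defining neuronal markers were present in both groups (12 of 12 above 0 in some library), with a summed level of 6538 to 7209 CPM in homozygous and 6616 to 7927 CPM in heterozygous libraries.

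Btg2 and Cyr61 rose in the homozygous mice that had lost Arf1 RNA, 1.80-fold and 2.10-fold, and none of the 10 genes fell. Junb, Ier2, Fos and Dusp1 were also higher in each of homozygous replicates 2 to 4 than in any heterozygous library, without passing the test. Fosb and Arc did not follow: their highest level was in a heterozygous mouse, replicate 1. With all 8 libraries as labelled no member passed.

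In the fit of 7 libraries, edgeR's quasi-likelihood test (adjusted p under 0.05 over 16560 genes) called 2 of 10 members higher and 0 lower, where 0.55% of all tested genes were called higher and 0.67% lower. Groups did not overlap for 6 of 10 members, all higher in the homozygous group, where 9.76% of all tested genes were so placed. At an unadjusted p under 0.05, 7 of 10 members were higher, against 9.51% of tested genes, and at an adjusted p of 0.1 edgeR called 6 higher, against 2.22%. A positive log2 fold change was found in 8 of 10 members, and in 50.5% of tested genes. The median log2 fold change of the members was 0.45, and that of all tested genes 0.00. In the fit of 8 libraries, edgeR called 0 of 10 members, and 0% of 16511 genes in either direction, while 5 of 10 members were higher at an unadjusted p under 0.05, against 7.87% of tested genes. Cyr61 was there the 1 member whose groups did not overlap, against 4.61% of tested genes higher without overlap, and again 8 of 10 were positive (50.4% of tested genes), with a median of 0.35. DESeq2 called 4 members higher with 8 libraries (Cyr61, Btg2, Fos and Junb; 1.64% of tested genes) and 6 with 7 libraries, adding Ier2 and Dusp1 (2.60% of tested genes).

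**Figure D1:**
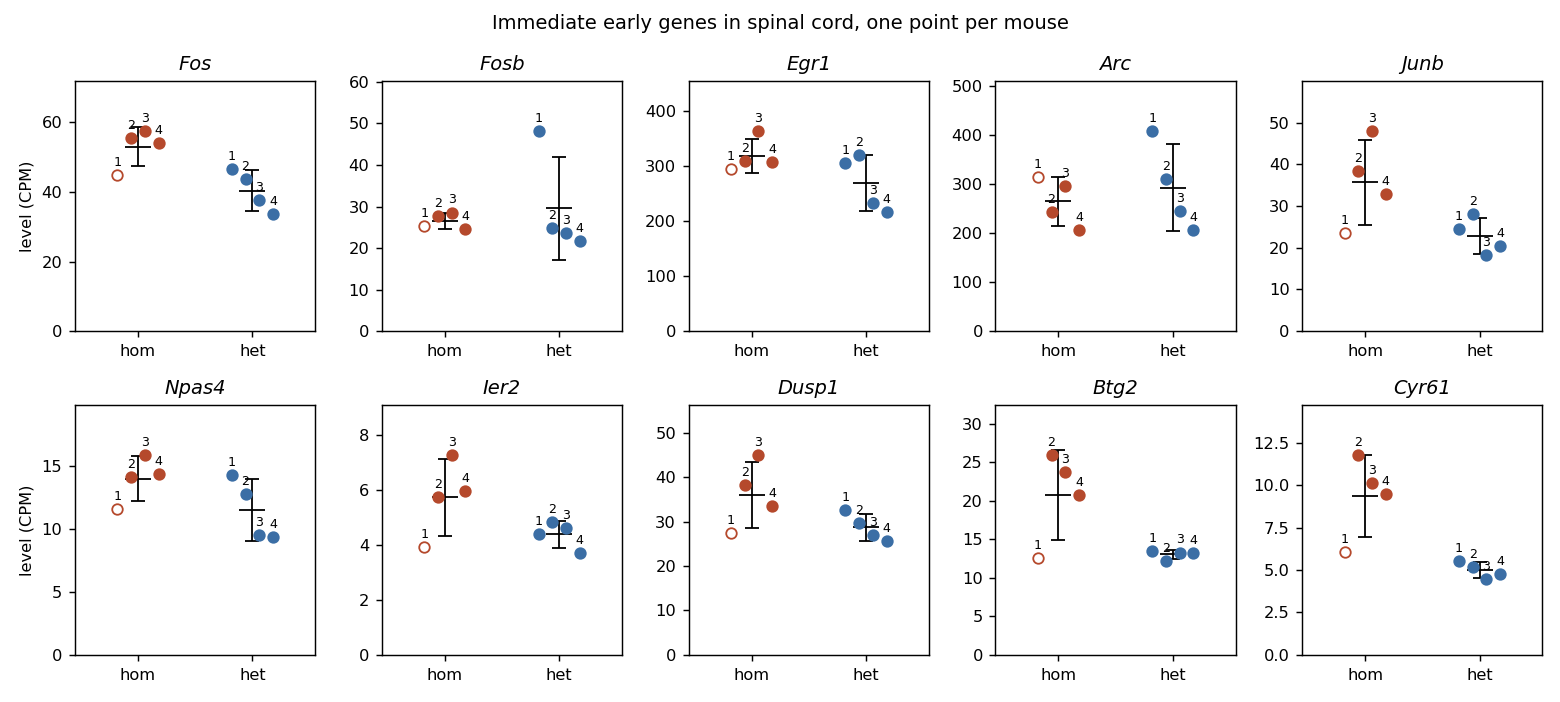
TMM-scaled CPM (y axis, a scale of its own for each gene, from 0) of the 10 genes, 1 point per mouse, homozygous left and heterozygous right; open points are the library labelled homozygous replicate 1 numerals are replicates, and black lines are the group mean ± SD (n = 4 each). Btg2 and Cyr61 of homozygous replicates 2 to 4 sit at 20.8 to 26.0 and 9.46 to 11.8 CPM, above all heterozygous libraries, while 1 heterozygous point stands alone at the top for Fosb.

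Levels can be compared between genes only per length, as TPM, where counts are divided by the effective length of the gene before they are scaled to the library. Arc and Egr1 were the most abundant, with a mean of 141 ± 30.3 TPM for Arc and 168 ± 7.62 TPM for Egr1 in homozygous libraries, and 174 ± 49.3 and 160 ± 27.2 TPM in heterozygous libraries (SD, n = 4 each), and their ranges overlapped. Fos followed at 48.1 ± 1.43 TPM in homozygous and 43.1 ± 4.96 TPM in heterozygous libraries, above the range of every gene below it in the heterozygous group. Dusp1 and Junb came next, with 30.4 ± 4.03 and 32.4 ± 6.94 TPM in homozygous and 27.7 ± 2.76 and 23.8 ± 4.30 TPM in heterozygous libraries, and did not differ beyond their spread. Below them lay Fosb and Btg2, at 11.8 ± 0.629 and 12.2 ± 2.89 TPM in homozygous and 15.7 ± 7.02 and 8.80 ± 0.618 TPM in heterozygous libraries. Npas4, Ier2 and Cyr61 were lowest, at 6.86 ± 0.498, 6.48 ± 1.18 and 7.72 ± 1.64 TPM in homozygous and 6.37 ± 1.26, 5.67 ± 0.428 and 4.68 ± 0.451 TPM in heterozygous libraries. In the heterozygous group Cyr61 was the lowest of the 10 by mean, and its range of 4.06 to 5.14 TPM touched those of Npas4 and Ier2.

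Fos, Fosb and Junb encode subunits of the AP-1 transcription factor, in which a Fos protein pairs with a Jun protein. Fos stood at 44.9, 55.5, 57.5 and 54.0 CPM in homozygous replicates 1 to 4, against 46.5, 43.8, 37.7 and 33.7 CPM in heterozygous replicates 1 to 4. Homozygous replicates 2 to 4 lay above every heterozygous library, and homozygous replicate 1 lay among them. The log2 fold change was 0.46 with 7 libraries (SE 0.10, 95% interval 0.23 to 0.69, edgeR adjusted p = 0.0634) and 0.39 with 8 (SE 0.11, edgeR adjusted p = 0.148). Without heterozygous replicate 1 as well, that is, in the 6 libraries that the authors' own gene tables hold, Fos passed (0.54, SE 0.095, edgeR adjusted p = 0.0365).

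Junb had 23.6, 38.4, 47.9 and 32.8 CPM in homozygous replicates 1 to 4, against 24.4, 28.1, 18.3 and 20.5 CPM in heterozygous replicates 1 to 4. Again the 3 homozygous libraries with low Arf1 were above all heterozygous ones, with homozygous replicate 3 at the top. The log2 fold change of 0.80 (SE 0.17, 95% interval 0.42 to 1.18) did not pass edgeR's test with 7 libraries (adjusted p = 0.0601), nor did 0.64 (SE 0.22) with 8 (adjusted p = 0.205).

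Fosb had 25.4, 27.8, 28.6 and 24.5 CPM in homozygous replicates 1 to 4, against 48.2, 24.9, 23.5 and 21.6 CPM in heterozygous replicates 1 to 4. Heterozygous replicate 1 stood far above the other 7 libraries, which lay close together. Fosb had a log2 fold change of -0.13 with 7 libraries (SE 0.29, adjusted p = 0.828 by edgeR), and of -0.16 with all 8 (SE 0.25, adjusted p = 0.774 by edgeR). Without heterozygous replicate 1 the sign turned, to 0.21 in 6 libraries (SE 0.090, edgeR adjusted p = 0.264). Of the other AP-1 genes, Jund (log2 fold change 0.39, edgeR adjusted p = 0.136) and Jun (0.08, edgeR adjusted p = 0.641) did not pass with 7 libraries. Neither did Fosl1 (0.39, edgeR adjusted p = 0.350) and Fosl2 (-0.02, edgeR adjusted p = 0.958). So 0 of 7 AP-1 genes, the 3 members included, were called, with a median of 0.39. Of all tested genes, 0.55% were called higher and 0.67% lower.

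Egr1, a zinc finger factor of the early growth response family, and Npas4, a helix-loop-helix factor made mainly in neurons after calcium entry, differed less. Egr1 had 294, 308, 363 and 307 CPM in homozygous replicates 1 to 4, against 304, 319, 233 and 217 CPM in heterozygous replicates 1 to 4. Heterozygous replicates 3 and 4 were low, homozygous replicate 3 was the highest, and the other 5 lay close together, so the groups overlapped. Its log2 fold change was 0.28 with 7 libraries (SE 0.14, edgeR adjusted p = 0.310) and 0.25 with 8 (SE 0.13, edgeR adjusted p = 0.355). Npas4 had 11.6, 14.1, 15.9 and 14.4 CPM in homozygous replicates 1 to 4, against 14.3, 12.8, 9.53 and 9.35 CPM in heterozygous replicates 1 to 4. The same pair of heterozygous libraries was low, and the groups overlapped through homozygous replicate 1 and heterozygous replicate 1. Its log2 fold change was 0.36 with 7 libraries (SE 0.15, edgeR adjusted p = 0.234) and 0.28 with 8 (SE 0.15, edgeR adjusted p = 0.371).

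Arc, an effector rather than a transcription factor, takes part in the removal of AMPA receptors from synapses. It had 314, 242, 296 and 206 CPM in homozygous replicates 1 to 4, against 408, 311, 245 and 207 CPM in heterozygous replicates 1 to 4. Within each group the level ran over a wide range and the groups overlapped throughout. Homozygous over heterozygous, the log2 fold change was -0.24 with 7 libraries (SE 0.24, 95% interval -0.79 to 0.31, edgeR adjusted p = 0.613) and -0.15 with 8 (SE 0.22, edgeR adjusted p = 0.764). Without heterozygous replicate 1 as well it was -0.04 (edgeR adjusted p = 0.933), and with only that library left out of the 8 it was 0.06 (edgeR adjusted p = 0.902).

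Dusp1, Btg2 and Ier2 act on signalling and on the cell cycle. Dusp1, a phosphatase that switches MAP kinases off, had 27.4, 38.3, 45.0 and 33.5 CPM in homozygous replicates 1 to 4, against 32.6, 29.6, 26.9 and 25.6 CPM in heterozygous replicates 1 to 4. Homozygous replicate 4 lay just above the highest heterozygous library and homozygous replicate 1 near the lowest. Its log2 fold change was 0.44 with 7 libraries (SE 0.11, edgeR adjusted p = 0.0872) and 0.33 with 8 (SE 0.14, edgeR adjusted p = 0.278).

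Btg2 limits cell proliferation and recruits the deadenylase that shortens messenger RNA tails. It had 12.5, 26.0, 23.8 and 20.8 CPM in homozygous replicates 1 to 4, against 13.5, 12.2, 13.3 and 13.3 CPM in heterozygous replicates 1 to 4. The 3 homozygous libraries with low Arf1 stood well apart from a narrow heterozygous group, and homozygous replicate 1 lay inside that group. With 7 libraries the mean was 23.5 ± 2.59 CPM in homozygous mice (SD, n = 3) and 13.0 ± 0.594 CPM in heterozygous mice (SD, n = 4). Btg2 rose by a log2 fold change of 0.85 (SE 0.092, 95% interval 0.64 to 1.05, edgeR adjusted p = 0.00822), and did not pass with 8 libraries (0.66, SE 0.19, edgeR adjusted p = 0.156). Btg2 spans 134075170 to 134079120 on the minus strand of chromosome 1 (GRCm38). Its promoter, printed above, was the one of these 4 with the full palindrome.

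Ier2, a nuclear protein induced by growth factors, had 3.92, 5.77, 7.29 and 5.97 CPM in homozygous replicates 1 to 4, against 4.41, 4.85, 4.63 and 3.72 CPM in heterozygous replicates 1 to 4. Homozygous replicates 2 to 4 were all above the heterozygous libraries, and homozygous replicate 1 was second lowest of all. Its log2 fold change was 0.53 with 7 libraries (SE 0.14, edgeR adjusted p = 0.0958) and 0.38 with 8 (SE 0.18, edgeR adjusted p = 0.317).

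Cyr61 is the secreted member of the set, a matrix protein of the CCN family that binds integrins and is strongly induced by the YAP coactivator and by serum. It had 6.09, 11.8, 10.2 and 9.46 CPM in homozygous replicates 1 to 4, against 5.56, 5.15, 4.47 and 4.76 CPM in heterozygous replicates 1 to 4. All 4 homozygous libraries were above all heterozygous ones, with homozygous replicate 1 only just so. With 7 libraries the mean was 10.5 ± 1.20 CPM in homozygous mice (SD, n = 3) and 4.98 ± 0.474 CPM in heterozygous mice (SD, n = 4). Cyr61 rose by a log2 fold change of 1.07 (SE 0.12, 95% interval 0.79 to 1.35, edgeR adjusted p = 0.0109). With 8 libraries the value was 0.91 (SE 0.18, 95% interval 0.50 to 1.31, edgeR adjusted p = 0.101), and the exact two-sided permutation test of the 2 groups of 4 gave p = 0.0286, the smallest it can give. In the authors' deposited table of 185 genes, Cyr61 was the 1 member listed, with a log2 fold change of 1.05 and a false discovery rate of 1.35e-07; the direction as coded is not stated there, and Arf1 in that table has -3.50. Among genes of the lists used here that stand in that table, the smallest log2 fold change in size was 1.03 (Hspb1). The absence of members with smaller changes, such as Btg2 (0.86 by edgeR in the 6 libraries), is therefore not a result on them. Cyr61 spans 145646976 to 145649981 on the minus strand of chromosome 3 (GRCm38).

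**Figure D2:**
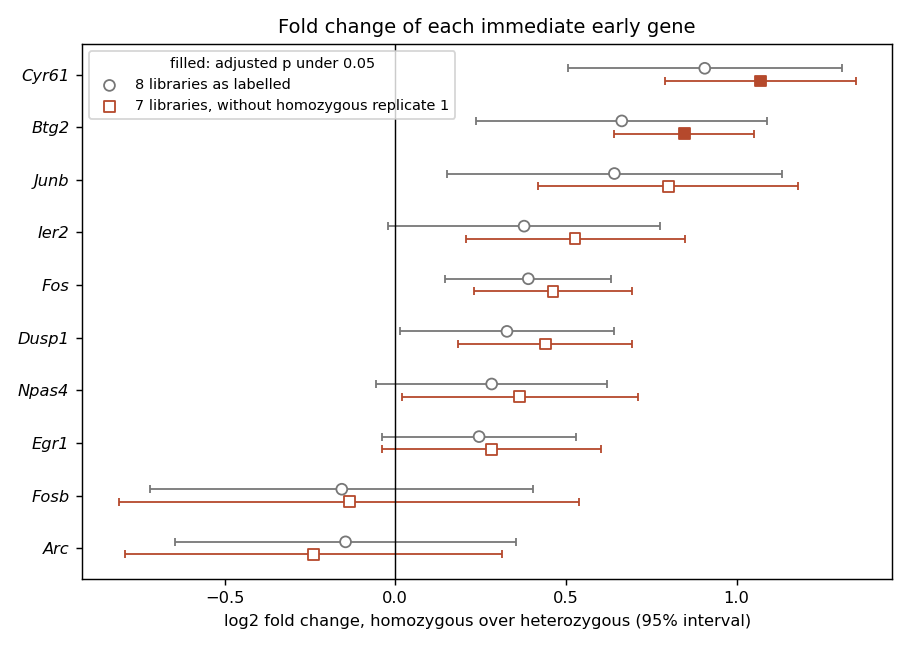
Log2 fold change, homozygous over heterozygous (x axis), with its 95% interval for each gene (y axis); circles are the fit of 8 libraries as labelled, squares that of 7 libraries, and filled symbols passed edgeR's test at an adjusted p under 0.05. Only the squares of Cyr61 (1.07) and Btg2 (0.85) are filled, and the intervals of Fosb, Arc and Egr1 cross 0 in both fits.

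Leaving out homozygous replicate 3 from the 7 libraries ended both calls (edgeR adjusted p = 0.0527 for Btg2 and 0.0538 for Cyr61, with log2 fold changes of 0.84 and 1.09). That is the library with the higher ribosomal share, whose part in the result was not tested. On log2(TPM + 1), a scale on which the median of all tested genes moved by -0.17, limma called Btg2, Cyr61 and Junb higher with 7 libraries (0.574% of tested genes). In the 6 libraries of the authors' gene tables edgeR called 3 of 10 members (Fos, Btg2 and Cyr61; 0.438% of tested genes), and 7 of 10 were higher without overlap (12.4% of tested genes).

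Cell type markers were compared too, and for most cell types their summed levels overlapped between the groups. With 7 libraries edgeR called 0.55% of all tested genes higher and 0.67% lower. The summed level of 10 endothelial markers was 137 to 223 CPM in homozygous and 193 to 265 CPM in heterozygous libraries, with none at 0, and 1 of the 10, Tie1, fell with 7 libraries (log2 fold change -1.23, SE 0.24, adjusted p = 0.0483 by edgeR) and did not pass with 8 (edgeR adjusted p = 0.0974). The 10 Schwann cell markers summed to 172 to 226 CPM in homozygous and 290 to 772 CPM in heterozygous libraries, without overlap, and 1 of them, Dhh, fell with 7 libraries (log2 fold change -3.51, edgeR adjusted p = 0.0256). The 8 microglial markers summed to 235 to 299 CPM in homozygous and 275 to 333 CPM in heterozygous libraries, and 1 of them, Tmem119, fell with 7 libraries (log2 fold change -0.56, edgeR adjusted p = 0.0462), though not with 6 (edgeR adjusted p = 0.0570). Smooth muscle and pericyte markers summed to 178 to 244 CPM in homozygous and 227 to 328 CPM in heterozygous libraries, astrocyte markers to 2752 to 3587 and 3462 to 4051 CPM, and oligodendrocyte markers to 7895 to 15464 and 10013 to 11450 CPM. The meningeal fibroblast markers summed to 999 to 1105 CPM in homozygous replicates 2 to 4 and to 510 CPM in homozygous replicate 1, against 493 to 770 CPM in heterozygous libraries, so that without the library that goes against its label the groups did not overlap. Among these markers Ptgds, a prostaglandin synthase, rose with 7 libraries (log2 fold change 1.04, edgeR adjusted p = 0.0176) and Col3a1, a collagen, fell (-2.33, edgeR adjusted p = 0.0498). Ptgds made up most of the summed level, with 865, 920 and 810 CPM in homozygous replicates 2 to 4, against 349 to 523 CPM in heterozygous libraries. With 7 libraries only 3 of the 10 meningeal markers had a positive log2 fold change (50.5% of all tested genes), and their median was -0.42. The blood cell markers summed to 266 to 744 CPM in homozygous and 192 to 476 CPM in heterozygous libraries. Positive log2 fold changes with 7 libraries numbered 0 of 10 endothelial (median -0.43), 2 of 10 Schwann cell (-1.12) and 2 of 8 microglial markers (-0.45). They numbered 2 of 10 for smooth muscle and pericytes (-0.17), 3 of 8 for astrocytes (-0.16) and 2 of 8 for oligodendrocytes (-0.27). For neurons they were 3 of 12 (-0.09), and for blood cells 7 of 7 (0.77). None of these markers was at 0 in all libraries, and the part of these cells in the members' levels was not tested.

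The members varied more from mouse to mouse than most genes of their level. The SD of log2 CPM within groups, over the 8 libraries, was 0.38 for Fosb, 0.36 for Arc, 0.36 for Junb and 0.33 for Btg2, against a median of 0.15 for all tested genes. Among genes within 0.5 log2 CPM of their own level, Arc and Fosb stood at the percentiles 98.5 and 98.4, and the lowest member, Ier2, at 75.2. The homozygous group here includes the library that goes against its label. For Btg2 the spread lay in the homozygous group (0.47, against 0.066 in the heterozygous group). There replicate 1, which goes against its label, had 12.5 CPM and replicates 2 to 4 had 20.8 to 26.0 CPM. For Fosb the spread lay in the heterozygous group (0.53, against 0.11 in the homozygous group).

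Several members shared the libraries in which they were highest or lowest. Centred on its mean over the 8 libraries and averaged over the 10 genes, the log2 CPM was -0.13, 0.28, 0.42 and 0.14 in homozygous replicates 1 to 4, against 0.08, -0.07, -0.32 and -0.40 in heterozygous replicates 1 to 4. Homozygous replicate 3 was the highest library for 6 of 10 members, and for 17.1% of all tested genes. Heterozygous replicate 4, the library with the higher 5′ to 3′ ratio, was the lowest for 6 of 10 members, and for 17.6% of all tested genes; the part of that ratio was not tested. On the TPM scale these counts were 3 and 0, and heterozygous replicate 3 was then the lowest for 6.

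**Figure D3:**
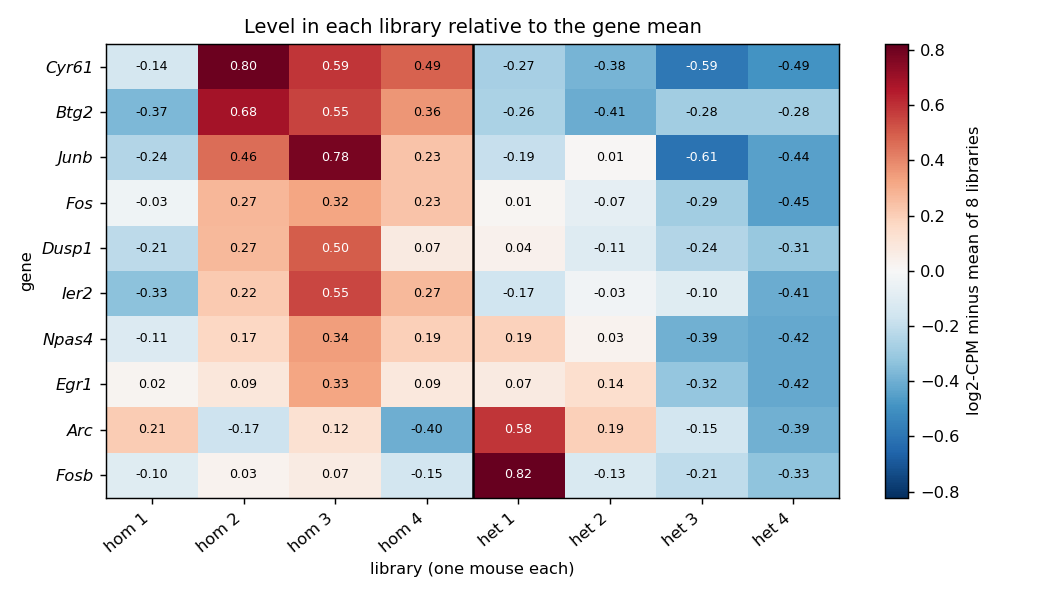
Log2 CPM of each gene (rows) in each library (columns, homozygous left), centred on the mean of the 8 libraries; red is above and blue below that mean. Homozygous replicates 2 to 4 are mostly red and heterozygous replicates 3 and 4 mostly blue, and Fosb and Arc are red in heterozygous replicate 1.

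Pairs of members were compared by the root mean square difference of these centred profiles over the 8 libraries. Egr1 and Npas4 were closest (0.093), followed by Fos and Npas4 (0.094), while Arc and Cyr61 were farthest apart (0.65). Among 13344 genes with a mean log2 CPM above 0, those closest to the average profile of the members were Dffb (0.083), Jund (0.088), Rprml (0.090), Bok (0.092), Prrt2 (0.093), Ccsap (0.098), Gpr22 (0.101) and Rab33a (0.102), where the average profile ran over a range of 0.81. Jund encodes the AP-1 subunit made constitutively in many cells. Of these 8 genes, none passed edgeR's test with 7 libraries, where Prrt2 came nearest (log2 fold change 0.38, adjusted p = 0.0634).

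Fosb and Arc had other neighbours, which were looked up after their values were seen. Closest to Fosb was Ptgs2 (0.061), the inducible cyclooxygenase, with 20.9, 21.6, 21.0 and 18.9 CPM in homozygous replicates 1 to 4, against 36.1, 18.6, 16.6 and 16.4 CPM in heterozygous replicates 1 to 4. Closest to Arc were Dusp14 (0.066) and Vgf (0.086), a secreted neuropeptide precursor that neuronal activity induces. Heterozygous replicate 1 was the highest library for Fosb and Arc. It was so for Ptgs2 and Vgf too, which followed from choosing them for their likeness to those profiles.

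Genes that neurons induce more slowly after activity were high in that same mouse. Of 16 such genes on the list 15 were tested, and heterozygous replicate 1 was the highest library for 12 of 15 (80.0%), against 16.3% of all tested genes. That library also had the highest summed level of neuronal markers, 7927 CPM, and was the highest for 4 of 12 of them (33.3%). The part of neuronal content in these levels was not tested. Nptx2, which clusters AMPA receptors and was picked after its values were seen, had 74.7, 30.4, 43.2 and 39.6 CPM in homozygous replicates 1 to 4, against 187, 50.9, 43.5 and 45.3 CPM in heterozygous replicates 1 to 4. Bdnf, the neurotrophin, had 31.2, 28.0, 32.3 and 26.0 CPM in homozygous replicates 1 to 4, against 61.3, 37.2, 33.1 and 28.0 CPM in heterozygous replicates 1 to 4. Homer1, a scaffold of glutamate receptors, had 279, 154, 155 and 176 CPM in homozygous replicates 1 to 4, against 393, 260, 189 and 193 CPM in heterozygous replicates 1 to 4. In each of them homozygous replicate 1 was the highest or next to highest of its group. For Nptx2 and Homer1 it also lay above heterozygous replicates 2 to 4. The part of its Arf1 level, or of anything else it shared with heterozygous replicate 1, was not tested.

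**Figure D4:**
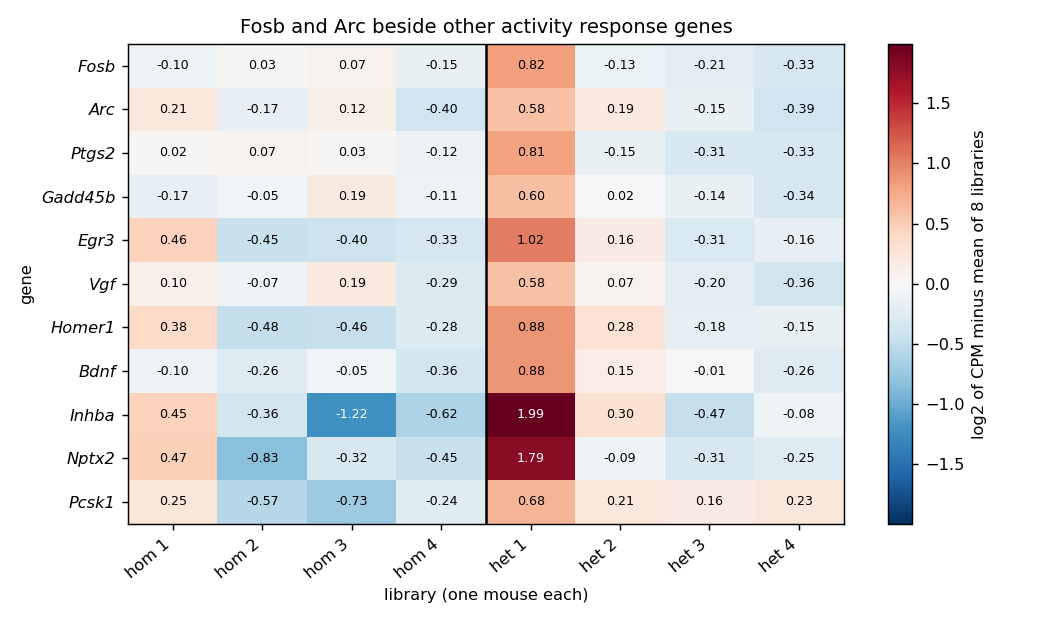
Log2 CPM of Fosb, Arc and other genes of the neuronal activity response (rows) in each library (columns, homozygous left), centred on the mean of the 8 libraries, red above and blue below it; the genes were picked after their values were seen. Heterozygous replicate 1 is the reddest column, as for Nptx2 at 187 CPM against 30.4 to 74.7 CPM in homozygous libraries.

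Most of the delayed genes had negative log2 fold changes. With 7 libraries, 0 of 15 rose and 1 fell, where 0.55% and 0.67% of all tested genes were called; 1 of 15 had a positive log2 fold change, and the median was -0.23. The gene that fell was Pcsk1, a prohormone convertase, with 41.1, 23.4, 20.9 and 29.4 CPM in homozygous replicates 1 to 4, against 55.5, 40.2, 38.7 and 40.6 CPM in heterozygous replicates 1 to 4 (log2 fold change -0.83, SE 0.16, edgeR adjusted p = 0.0484). Homozygous replicate 1 had the heterozygous level of it, and with 8 libraries Pcsk1 did not pass (-0.60, edgeR adjusted p = 0.222). Without heterozygous replicate 1 as well, the median of the list was -0.11, 5 of 15 were positive, and Pcsk1 still passed (-0.69, edgeR adjusted p = 0.0334).

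Among 44 other rapid response genes 1 rose and 0 fell with 7 libraries, where 0.55% of all tested genes were called higher and 0.67% lower. Their median was 0.08. The gene was Cebpd, a factor of inflammatory and glucocorticoid signalling, with 1.07, 2.68, 2.66 and 3.20 CPM in homozygous replicates 1 to 4, against 1.5, 1.30, 1.07 and 1.34 CPM in heterozygous replicates 1 to 4 (log2 fold change 1.13, SE 0.19, edgeR adjusted p = 0.0334). With 8 libraries its adjusted p by edgeR was 0.201. Next by p were Ctgf, the CCN relative of Cyr61 (0.45, edgeR adjusted p = 0.0749), Arl4d (0.39, edgeR adjusted p = 0.0837) and Per1, a clock gene (0.36, edgeR adjusted p = 0.0895). Without heterozygous replicate 1 as well, 5 of the 44 rose, where 0.438% of all tested genes were called higher: Atf3 (log2 fold change 1.60, edgeR adjusted p = 0.0215), Dusp5 (0.77, edgeR adjusted p = 0.0137), Arl4d (0.49, edgeR adjusted p = 0.0273), Cebpd (1.21, edgeR adjusted p = 0.0345) and Ctgf (0.57, edgeR adjusted p = 0.0186).

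Of 22 close relatives of the members, 1 rose with 7 libraries and 0 fell, against 0.55% and 0.67% of all tested genes. The median was 0.22. The relative that rose was Nov, a CCN protein (log2 fold change 0.44, SE 0.089, adjusted p = 0.0495 by edgeR). Btg3, a relative of Btg2, came next without passing (0.55, edgeR adjusted p = 0.0527). Nov did not pass with 6 libraries (edgeR adjusted p = 0.0663) or with 8 (edgeR adjusted p = 0.377). Btg3 passed with 6 libraries (0.63, edgeR adjusted p = 0.0365) and did not with 8 (edgeR adjusted p = 0.135). With 6 libraries 3 of the 22 relatives were called higher and 0 lower, where 0.438% of all tested genes were called higher. The 28 upstream regulators, kinases and factors that switch immediate early genes on, held no call in either direction, with a median of 0.03. The smallest p among them were those of Mapk3, which encodes the kinase ERK1 (0.26, edgeR adjusted p = 0.0844), and of Rps6ka3, which encodes a kinase downstream of ERK (-0.40, edgeR adjusted p = 0.0837).

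Genes of other stress responses were set beside the members. Of 10 glucocorticoid-induced genes 2 rose with 7 libraries and 0 fell, with a median of 0.39. Of all tested genes, 0.55% were called higher and 0.67% lower in that fit. Sult1a1, a sulfotransferase, rose by a log2 fold change of 1.77 (SE 0.21, adjusted p = 0.0160 by edgeR). Mt2, a metal-binding metallothionein, rose by 0.64 (SE 0.12, adjusted p = 0.0406 by edgeR). Without heterozygous replicate 1 as well, Sult1a1 passed (edgeR adjusted p = 0.0239) and Mt2 did not (edgeR adjusted p = 0.0535), and with 8 libraries neither did (edgeR adjusted p = 0.130 for Sult1a1 and 0.267 for Mt2). Of 9 heat shock genes 0 rose and 0 fell, and the median was -0.20. Heterozygous replicate 1, the mouse with the most Fosb and Arc, was the highest library for 8 of the 9 (88.9%, against 16.3% of all tested genes). Hspa1b, an inducible chaperone picked after its values were seen, had 9.40, 7.18, 6.73 and 5.28 CPM in homozygous replicates 1 to 4, against 33.3, 13.8, 8.30 and 6.20 CPM in heterozygous replicates 1 to 4.

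RSEM also reports an effective length for each gene, the mean over its transcripts weighted by their abundance, which moves when the mix of isoforms moves. For the 5 members with 1 annotated transcript it ran over 21.2 bases between libraries. With 7 libraries it was 5.95 bases longer in the homozygous group for each of these 5 (exact two-sided permutation p = 0.0286, unadjusted), which have no isoforms to mix. A small p on this length therefore does not by itself show a change of isoforms. The difference with 7 libraries was 208 bases for Fosb and 105 bases for Fos. For Fosb, with 7 transcripts, it was 3296, 3454, 3528 and 3384 bases in homozygous replicates 1 to 4, against 3104, 3281, 3368 and 3234 bases in heterozygous replicates 1 to 4. Heterozygous replicate 1, the library with the most Fosb, had the shortest value, and the groups overlapped. The exact two-sided permutation test gave p = 0.0571 with 8 libraries, adjusted to 0.214 over the 5 members with more than 1 transcript, and p = 0.0571 with 7, adjusted to 0.0952. For Fos, with 4 transcripts, it was 1548, 1644, 1737 and 1729 bases in homozygous replicates 1 to 4, against 1584, 1646, 1606 and 1557 bases in heterozygous replicates 1 to 4 (exact two-sided permutation p = 0.257 with 8 libraries and 0.0857 with 7). TPM divides by this length. Fos in TPM was 47.7, 49.5, 46.3 and 48.9 in homozygous replicates 1 to 4, against 49.5, 44.7, 38.8 and 39.6 in heterozygous replicates 1 to 4, where the groups overlapped.

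**Figure D5:**
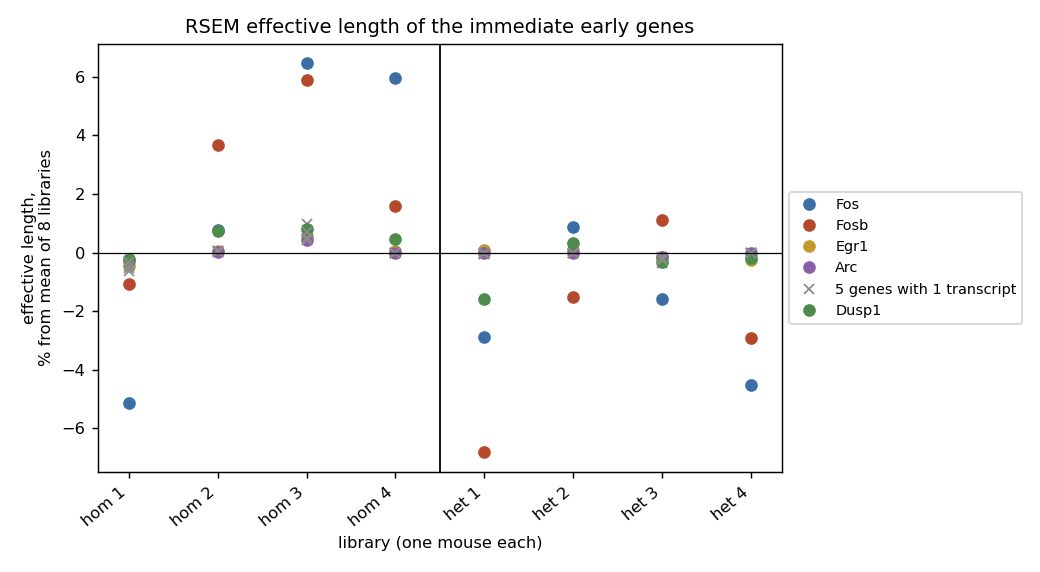
RSEM effective length (y axis, percent from the mean of the 8 libraries) of the 10 genes in each library (x axis, homozygous left); crosses are the 5 genes with 1 transcript. Fosb and Fos spread the most, over 12.7% and 11.6% of their mean, and the crosses stay near 0.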

How the data were processed

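Spinal cord RNA of 8 mice was sequenced as 1 library each. The submitters' processing notes name cutadapt, STAR, RSEM, Picard and the build mm10, and no source used here gives their versions or the annotation. Per the file headers, the authors deposited an expected count, a TPM and an FPKM from RSEM for every gene; FPKM served no result. The deposited table of the authors' comparison holds a log2 fold change, a log2 CPM, a p-value and a false discovery rate per gene, and a deposited sequencing report gives percent mapped and other quality values. Reads that fit several similar genes are split among them by RSEM, which makes relatives within a family less certain.

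Expected counts were rounded to whole numbers and tested with edgeR 4.0.16 in R 4.3.3 (TMM scaling, filterByExpr by group, robust quasi-likelihood fit, Benjamini-Hochberg adjustment over all tested genes, threshold 0.05), for 8 libraries as labelled and for 7 without the library whose Arf1 level goes against its label. Intervals are 95%. CPM in single libraries come from the scaling of 8 libraries, and means with their SD from the fit named beside them. DESeq2 1.42.0, limma 3.58.1 on voom weights or on log2(TPM + 1), other scalings and filters, an adjusted p of 0.1 and each library left out were alternatives. The procedure was tested on counts simulated for independent libraries, none of which went against its label. That test says nothing on such a library.

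The members, gene lists and rules for naming genes were chosen with earlier results of these data known. Named were all members, the genes of each list with the smallest p (up to 4), and the 8 genes nearest the members' mean profile. Replicate numbers follow accession order. The labels state neither litter nor pairing, so the tests treat the mice as independent, which could not be checked. Gene positions come from GENCODE M21 and promoters from RefSeq, both GRCm38, matched by gene ID or symbol. Python 3.11.15 with pandas 2.3.3 and matplotlib 3.10.9 read promoters and drew figures.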

Additional observations from a re-analysis of the deposited data

Results flagged for a closer look

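Among 104 pairs of a named gene and a genotype group, over 52 genes, 12 held a library far from the other 3 (gap to the nearest library over the range of the group, above Dixon's 95% critical value); chance gives about 1 in 20 such pairs. Several of the genes, among them Ptgs2, Nptx2, Inhba and Egr3, were picked because heterozygous replicate 1 was high, and Arf1 was known to stand apart, so the count cannot be read against that rate. Of the immediate early genes, Fosb in heterozygous replicate 1 was so placed (0.877, at 48.2 CPM). The same library stood apart on the high side for Nptx2 (0.949), Pcsk1 (0.892), Ptgs2 (0.889), Fosl2 (0.889), Ctgf (0.873) and Inhba (0.844). Homozygous replicate 1 stood apart on the high side for Arf1 (0.939) and for Egr3 (0.900), a relative of Egr1. Homozygous replicate 4 was low for Map2k1 (0.916). Heterozygous replicate 2 was high for Nov (0.850) and low for Mt2 (0.844).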

How the results depend on the processing

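Btg2 and Cyr61 kept their direction in every alternative run. With 7 libraries both passed under every alternative at an adjusted p under 0.05 except without homozygous replicate 3. Members called higher with 8 libraries numbered 1 without the filter on low counts (Cyr61), 4 by DESeq2, 3 in the authors' 6 libraries, and 0 to 2 with a library left out, where the 2 came without homozygous replicate 1. With 7 libraries, where 2 were called, there were 6 by DESeq2, 6 at an adjusted p of 0.1, and 0 to 4 with a library left out. With a library left out, the log2 fold change of Fosb ran from -0.28 to 0.18 with 8 libraries and from -0.26 to 0.21 with 7, and that of Arc from -0.28 to 0.057 with 8. The positive ends came without heterozygous replicate 1, and Fosb was 0.21 in the authors' 6 libraries too.

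Over all genes, 0 were called in either direction with 8 libraries. There were 19 higher and 44 lower without the filter, 270 and 409 by DESeq2, 21 and 50 at an adjusted p of 0.1, 72 and 160 in the 6 libraries, 1 lower on log2(TPM + 1), and 0 to 91 higher and 0 to 111 lower with a library left out. With 7 libraries 91 were higher and 111 lower. There were 157 and 287 without the filter, 431 and 650 by DESeq2, 55 and 54 by limma-voom, 69 lower without the robust fit, 2095 lower on log2(TPM + 1), 367 and 467 at an adjusted p of 0.1, 60 higher without scaling factors, and 3 to 139 higher and 3 to 263 lower with a library left out. The scaling without factors and the 6 libraries were chosen after seeing the data, and the cause of the other shifts was not tested. No paired analysis was possible because the titles carry animal numbers and the labels give no shared replicate numbers. Ier2 and Cyr61, at under 12 CPM, are the members with the fewest counts.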
